A study of Mus musculus with 15 samples.

Results

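The transcripts described here lie just past the 3′ end of a known gene, on the same strand and without overlapping it. They were chosen as every row of the deposited transcript table to which the assembly comparison gave class code p, the code for such a position. The rule took 883 of 129029 listed transcripts, or 2.44% of the 36125 transcripts that were assembled from the reads and are not Ensembl transcripts. The kidneys came from 15 male C57BL/6 mice (C57BL/6J in the methods of the study) with no treatment or allele named in the labels, 5 mice at 3 months, 5 at 12 months and 5 at 24 months of age, with 1 column of values per mouse. The study compared ages to describe coding and non-coding RNA in the ageing kidney. The labels describe stranded libraries made after removal of ribosomal RNA, while the methods of the study speak of oligo(dT) purification and of pooled RNA, so the make-up of the libraries for RNA without a poly(A) tail cannot be told from these sources. Sample titles begin with 3M at every age, and the ages used are those of the age label and of the column names.

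Most genes read by RNA polymerase II end where a protein complex recognises a poly(A) signal in the nascent RNA, usually AATAAA or ATTAAA in DNA letters, cuts the RNA a short way downstream and adds a poly(A) tail. The polymerase runs on past the cut, and the RNA it leaves behind is degraded from its free 5′ end by the exonuclease Xrn2 until the polymerase is released. RNA mapped just past a gene end can therefore come from a longer 3′ UTR than the annotation holds, from transcription that was not terminated, or from a separate transcript with its own start. The present tables hold levels per transcript and do not tell these apart.

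The tissue was checked by its markers. Slc34a1, the phosphate transporter of the proximal tubule, stood between 538 and 902 FPKM (fragments per kilobase of transcript with the total of mapped fragments scaled to a common size) in the 15 mice, and Umod, made by the thick ascending limb, between 542 and 933. Cyp11b1 of the adrenal cortex reached at most 0.0107. Summed immune markers stood between 169 and 480 FPKM at 3 months and between 291 and 562 at 24 months, and summed heat shock and immediate early genes between 1385 and 1937 at 3 months and between 824 and 1096 at 24 months. In whole kidney, fewer cells of a type and less RNA per cell cannot be told apart. Aligned bases, from the deposited coverage, were 5.03 to 6.13 Gb (gigabases) per mouse at 3 months, 5.84 to 8.03 Gb at 12 months and 6.07 to 7.33 Gb at 24 months.

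Sequences at the gene ends are shown for the few transcripts on which the results turn, since these letters carry the poly(A) signal. Each is the last 30 bases of a gene on GRCm38, read 5′ to 3′ on the gene's strand from the transcripts of GENCODE release vM21, with AATAAA and ATTAAA in capitals. The first pairs set the listed end against a later end of the same gene that the newer annotation holds. No Ensembl transcript of 2900097C17Rik is listed, so the end labelled as listed for it is an earlier vM21 end. For 2900097C17Rik and Ctsl the listed end had neither hexamer and the later end had AATAAA. Other pairs differed from these, with AATAAA at both ends of Rps6ka5 and neither hexamer at either end of Mbl1 and Gm26782. Gtpbp4 and Slc25a32 are shown at the later end only.
2900097C17Rik, listed end, chr2:156392491-156392520, minus strand: acccgtggccgagcacgcagacctggatga
2900097C17Rik, later end, chr2:156388065-156388094, minus strand: actaaaaaAATAAAcaaaagcttctttaaa
Ctsl, listed end, chr13:64363214-64363243, minus strand: gggctaagataaacatgtaatgttataccc
Ctsl, later end, chr13:64359337-64359366, minus strand: atgcaaAATAAATAAAtctaatgtttgtgt
Gtpbp4, later end, chr13:8966331-8966360, minus strand: ttgtagaaaaATTAAAaatattttgtatgg
Slc25a32, later end, chr15:39091231-39091260, minus strand: taagtgaaaAATAAAtttattttaaaaata
A second set shows listed ends followed by an abundant or called transcript outside any newer exon of the same gene. No Ensembl transcript of Tmem203 is listed either, so its end is taken from vM21 alone. Tmem203 and Vps13c carried a hexamer there, whereas Dyrk1b, Cmklr1 and Zfp648 carried none.
Tmem203, chr2:25256263-25256292, plus strand: gtcttgtttATTAAAacttatttccagtta
Vps13c, chr9:67995609-67995638, plus strand: tattcattaatATTAAAattgtgaagcaaa
Dyrk1b, chr7:28187265-28187294, plus strand: ctgtaccccccagtaaaaagctttctcaca
Cmklr1, chr5:113612354-113612383, minus strand: tccatgtaaacatcttaatggtctttttga
Zfp648, chr1:154205660-154205689, plus strand: tcttctgatgaatgagagtacagtggactt

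The hexamers were then counted over protein-coding genes whose listed end is also an end in vM21. Of 613 such genes followed by an assembled transcript, 41.3% had AATAAA in their last 30 bases and another 13.7% had only ATTAAA, 55.0% in all. Of the 16589 other genes, 53.1% had AATAAA and 12.0% only ATTAAA, 65.1% in all. Among genes with a mean of at least 1 FPKM and an mRNA at that end, the shares with either hexamer were 58.9% of 494 genes and 68.8% of 8281 genes. Gene ends followed by an assembled transcript thus carried the hexamers in a smaller share than other gene ends, which is a description with no test. Hexamers were sought on the transcribed strand only, overlapping copies counted, and a missing match says only that these letters are not in the window.

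Every one of the 883 transcripts was a single exon. They lay on 20 chromosomes, 459 on the plus and 424 on the minus strand, with the most, 76, on chromosome 2. Their length ran from 206 to 31396 bases with a median of 729, and 305 were under 500 bases. The transcript past Larp4b, an RNA-binding protein of mRNA, was the longest. The distance from the nearest listed end of the gene to the transcript had a median of 774 bases, with 840 at 2000 bases or less, 67 at 100 bases or less and 11 beyond 2000 bases. The neighbouring gene was listed in the table for 851 of the 883. The transcripts followed 858 genes, of which 25 were followed by 2 transcripts and none by more, so no gene stood out by number.

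By gene type in vM21, 721 followed a protein-coding gene, 45 a lincRNA, 34 a processed pseudogene and 8 a miRNA gene. The next gene on the same strand began a median of 27040 bases further on, and 34 transcripts lay within 1000 bases of it. Only 4 overlapped a RefSeq promoter window, from 250 bases before to 50 after a gene's start, on the same strand. None held a miRNA hairpin. Of the 8 miRNA genes, 5 were matched in RefSeq's miRNA table (GRCm38.p6), and the pair shown next was chosen after their values were seen, because their transcripts were long and abundant. Mir193a and Mir365-2 are neighbours on the plus strand of chromosome 11. The seed, bases 2 to 8 of the mature miRNA, is in capitals.
miR-193a-5p, chr11:79711975-79711996: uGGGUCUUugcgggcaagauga
miR-193a-3p, chr11:79712009-79712030: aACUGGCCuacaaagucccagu
miR-365-2-5p: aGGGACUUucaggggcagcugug
miR-365-3p: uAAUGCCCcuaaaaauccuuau
The 4 mature sequences have 4 different seeds. A transcript of 9860 bases began 6 bases past the Mir193a hairpin and had a mean of 1.45 FPKM over the 15 mice, being above 0 in 7 of them. A transcript of 14947 bases began 170 bases past Mir365-2 and had a mean of 2.03 FPKM, being above 0 in 13 mice.

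**Figure D1:**
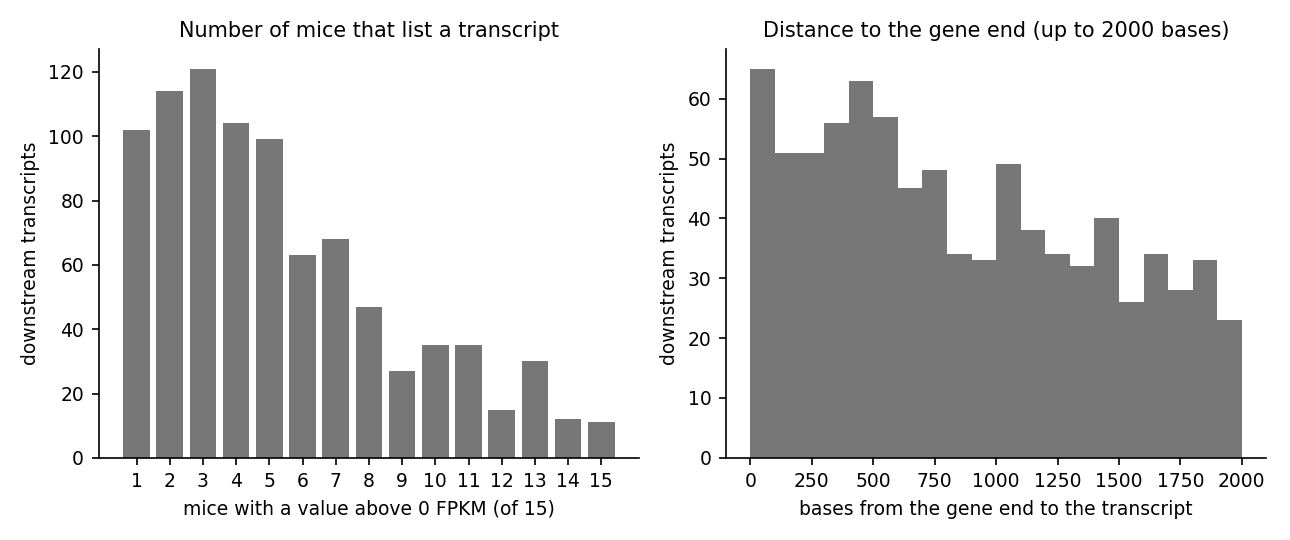
Left, number of transcripts (y axis) by the number of mice, 1 to 15, in which their FPKM was above 0 (x axis). Right, number of transcripts by the distance in bases from the end of the neighbouring gene, up to 2000 bases; 11 transcripts were above 0 in all 15 mice, and the median distance was 774 bases.

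The newer annotation places some of these transcripts inside genes. In vM21, 52 of the 883 (5.89%) overlapped an exon on the same strand, 45 of them an exon of the gene they were listed past, and 23 lay wholly inside such an exon. They were unevenly placed, with 48 of the 52 on chromosomes 12 to 19, which hold 264 of the 883, and 3 on chromosomes 1 to 11, which hold 592. For 44 of the 45 overlapping their own gene, the newer end lay past the earlier one, by a median of 2403 bases (277 to 8935). The earlier end was the listed one, or for 2900097C17Rik a vM21 end. Of the 45 later ends, 62.2% had AATAAA and 15.6% only ATTAAA in their last 30 bases. The most abundant of all 883, past 2900097C17Rik, had 2697 of its 3219 bases in such an exon. The transcript past Ctsl, the lysosomal protease cathepsin L, had all of its 1106 bases in one (chosen after its values were seen).

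The transcripts were rare beside the genes they followed. Their mean FPKM over the 15 mice ranged from 0.00529 to 34.6 with a median of 0.283, and 73 (8.27%) reached 1 FPKM. The neighbouring genes, each the sum of its Ensembl transcripts, had a median of 4.57 FPKM. The ratio of the transcript to its gene had a median of 0.0652, with quartiles of 0.0227 and 0.254, and 83 of 851 transcripts (9.75%) had a higher mean than their gene. Against the most abundant Ensembl transcript of the gene in place of the sum, the median ratio was 0.106.

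The level of the transcript showed little relation to the level of the gene. The median was 0.291 FPKM past 173 genes below 1 FPKM, 0.282 past 455 genes from 1 to 10 FPKM, and 0.264 past 223 genes at 10 FPKM or more. Across the 851 pairs, Pearson's r was 0.029 and Spearman's rho 0.003, as a description over transcripts that share libraries and depth. By distance, the median level was 0.302 FPKM within 500 bases of the gene end, 0.277 from 500 to 1000 bases and 0.264 from 1000 to 2000 bases. The median length in these bands was 916, 800 and 551 bases.

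A listed value of 0 was common and came in an on-and-off pattern. Of 13245 values (883 transcripts in 15 mice), 8530 (64.4%) were 0. A total of 872 transcripts were at 0 in at least 1 mouse, 540 were above 0 in 5 mice or fewer, and 102 in exactly 1. Classes were compared at like depth. Among transcripts with 3000 to 10000 aligned bases in the mice where they were listed, 70.6% of values were 0 for these transcripts, 62.8% for assembled transcripts between genes, 67.5% for those inside introns and 16.8% for annotated transcripts. For this reason a 0 is given below as listed at 0, each mouse's value is printed for the transcripts on which the results turn (a mean or range for the others), and no fold is given against an age at which every mouse is at 0.

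The most abundant transcripts were led by 1 that stood apart. The transcript past the lincRNA 2900097C17Rik (chr2:156387543-156390761, minus strand) had 36.3, 31, 32, 39.5 and 37.8 FPKM at 3 months. At 12 months it was listed at 0 in 2 mice and stood at 37.9, 41.2 and 40.4 in the others, and at 24 months it had 40.1, 37.0, 51.7, 44.0 and 50.0. The pair at 0 at 12 months stood beside values near 40 in mice of the same age. Between 24 and 3 months it differed by 0.32 on the log2(FPKM + 1) scale (SE 0.14, limma, adjusted p = 0.607), below the fold limit.

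The transcript past Gm15163, a processed pseudogene, began 32 bases past the gene end (chrX:157015853-157016197, minus strand) and was above 0 in all 15 mice. It had 8.49 ± 2.42 FPKM at 3 months, 7.31 ± 1.44 at 12 months and 9.44 ± 1.11 at 24 months (SD, n = 5 each). The gene itself ranged from 15 to 25 FPKM. Transcript and gene were thus both listed in every mouse, and the difference between 24 and 3 months was 0.17 on the log2(FPKM + 1) scale (SE 0.17, limma, adjusted p = 0.739).

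Cyp2j11, a cytochrome P450 of the kidney, was followed after 1394 bases by a transcript with a mean of 3.83 FPKM, 5.95% of the 64.3 FPKM of the gene. It had 5.84, 3.06, 3.80, 0.119 and 7.02 FPKM at 3 months, 4.65, 0, 5.06, 0.903 and 0 at 12 months, and 0, 7.91, 8.63, 5.57 and 4.84 at 24 months. The ages overlapped fully, while the gene was between 49.4 and 77.6 FPKM in every mouse. Dnajc24, a J-protein of diphthamide synthesis, was followed by a transcript with a mean of 3.77 FPKM, 1.41 times that of the gene. That transcript had 2.62, 3.89, 0, 0 and 4.17 FPKM at 3 months, 4.94, 0, 5.91, 7.45 and 6.25 at 12 months, and 6.88, 4.76, 9.26, 0.361 and 0 at 24 months.

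Other transcripts with a level near that of their gene followed Dyrk1b (ratio 1.04), a protein kinase, Marveld2 (0.989), the tight-junction protein tricellulin, Rad51d (0.874), a homologous recombination protein, and Tnfrsf14 (0.824), a receptor of the tumour necrosis factor family. Each had a gene of at least 1 FPKM and was at 0 in 2 or more mice. The transcript past Nkain1, whose product interacts with the sodium pump, had 6.27, 2.30, 0, 3.70 and 2.29 FPKM at 3 months and was listed in only 1 mouse at 24 months, at 4.88. The transcript past the non-coding Gm26621 had a mean of 2.46 FPKM and was at 0 in 1 mouse at 3 months and in 1 at 24 months.

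The 11 transcripts above 0 in all 15 mice allowed values with an error at every age. Past Vps13c, a lipid transfer protein at membrane contacts, the transcript (chr9:67997017-67997719, plus strand) had 2.17 ± 0.565 FPKM at 3 months, 2.77 ± 0.494 at 12 months and 3.38 ± 0.647 at 24 months (SD, n = 5). Its difference between 24 and 3 months was 0.47 on the log2(FPKM + 1) scale (SE 0.16, limma, adjusted p = 0.491), and that of the gene was 0.00. Past Atmin, a zinc finger protein of the DNA damage response, the transcript had 1.60 ± 0.331 FPKM at 3 months and 2.54 ± 0.446 at 24 months (SD, n = 5, log2 difference 0.44, SE 0.14, limma, adjusted p = 0.437). The gene Atmin itself differed by 1.07 (SE 0.63).

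Past the pseudogene Gm21811 the transcript had 2.43 ± 0.589 FPKM at 3 months, 3.19 ± 1.56 at 12 months and 4.08 ± 0.624 at 24 months (SD, n = 5), with a log2 difference between 24 and 3 months of 0.57 (SE 0.15, limma, adjusted p = 0.348). Past Gm6483 it had 2.42 ± 0.487 FPKM at 3 months and 3.31 ± 0.284 at 24 months (SD, n = 5; log2 difference 0.34, SE 0.12, limma, adjusted p = 0.532). The gene Gm21811 was listed at 0 in every 3-month mouse and was above 0 in 3 mice at 24 months, so no difference is given for it. The gene Gm6483 differed by 0.14 (SE 0.14). None of these 4 transcripts reached the fold limit. Gm21811 and Gm6483 belong, with Gm26853 and 3 others, to a stretch of chromosome 8 that holds 6 of the 883 transcripts past like-named loci, and their values are uncertain where near-identical copies share reads. The others above 0 in all mice were past Slc3a2, Gm37699, Gm7902, Larp4b, Gm5578 and Gm21378, with unadjusted p-values of at least 0.165 between 24 and 3 months.

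Kidney genes and other lists were searched for transcripts past their ends. Among markers of kidney cells, 3 followed proximal tubule genes (Fbp1, Pck1, Slc7a13), 3 followed genes of the thick limb and distal tubule (Cldn16, Kl, Ptger3), 3 followed endothelial and mural genes (Ehd3, Emcn, Pdgfrb), and none followed a collecting duct, podocyte, immune, urothelial, adipocyte or adrenal gene. These lists hold 38, 23, 20, 20, 12, 22 and 15 genes in that order, with urothelium, adipocyte and adrenal genes as 1 list. Of all 31701 genes fitted between 24 and 3 months, 822 were followed by an assembled transcript of this kind. With lists this short, the counts are not read as a difference between cell types. Past Fbp1, an enzyme of gluconeogenesis, the mean was 1.90 FPKM, 1.82% of the gene. Past Kl, the co-receptor of FGF23, it was 1.09 FPKM, 1.45% of the gene. That transcript was above 0 in all 5 mice at 24 months, at 1.42, 1.30, 1.99, 1.16 and 1.51, and in 10 of 15 mice in all. Past Ehd3, an endocytic recycling protein, it was 0.222 FPKM.

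Transcripts past housekeeping genes of high level were a small share of them. Past Rps6, a protein of the small ribosomal subunit, the mean was 0.874 FPKM, 0.515% of the 170 FPKM of the gene. Past Ndufc2 of respiratory complex I it was 0.670 FPKM or 3.15%. Past Slc3a2, the heavy chain of amino acid transporters, it was 1.79 FPKM or 3.85%, from 0.170 to 3.15 over 15 mice. Past Tef, a clock output factor, it was 0.392 FPKM, and past Atf4, the factor of the integrated stress response, 0.311 FPKM. Zinc finger genes were followed by 45 transcripts with a median ratio of 0.257. The most abundant of them, past Zfp169, had 1.54 FPKM or 34.7% of the gene. Solute carriers were followed by 18, respiratory chain genes by 7, ribosomal protein genes by 8 (a symbol match that also took Rps6ka5 and a pseudogene), and P450 and transferase genes by 9.

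At the later ages the median number of transcripts listed per mouse was lower, and the level where listed was higher. Of the 883, the 3-month mice had 39.8%, 42.2%, 40.9%, 46.1% and 34.4% above 0. The 12-month mice had 25.1%, 34.8%, 34.5%, 39.1% and 29.9%, and the 24-month mice 28.5%, 33.5%, 38.8%, 30.9% and 35.3%. The median numbers were 361, 305 and 296 transcripts, and the ages overlapped. Other assembled classes shared the lower numbers at the later ages. Their medians were 4531, 4105 and 4167 within introns, 1805, 1621 and 1582 between genes, and 766, 717 and 721 antisense to a gene. Over all listed transcripts the medians were 84521, 88851 and 87948. The median FPKM of those above 0 was 0.780 to 0.990 per mouse at 3 months, 0.889 to 1.27 at 12 months and 1.21 to 1.51 at 24 months, so that the 3- and 24-month mice did not overlap. Their summed FPKM did overlap, at 355 to 507, 241 to 478 and 370 to 576.

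The same level moved in other assembled transcripts and not in annotated ones. Within introns the median of values above 0 was 0.848 to 0.966 FPKM at 3 months and 1.08 to 1.54 at 24 months. Between genes it was 0.528 to 0.688 and 0.931 to 1.32. For annotated transcripts it was 0.359 to 0.422 and 0.348 to 0.388. Aligned bases per mouse were also higher at the later ages, the median being 6.04 Gb at 3 months, 7.17 Gb at 12 months and 7.00 Gb at 24 months. The median level past gene ends was 0.860, 1.02 and 1.34 FPKM at these ages. Within ages the order was mixed. The mouse with the fewest aligned bases had the highest level at 3 months (replicate 8, 5.03 Gb, 0.990 FPKM). At 24 months such a mouse had the lowest level (replicate 32, 6.07 Gb, 1.21 FPKM). The fit with zeros kept was also run with aligned bases as a covariate. At unadjusted limma p under 0.05 it moved 19 higher and 27 lower to 80 and 11 between 12 and 3 months. Between 24 and 3 months, 32 and 26 became 35 and 15, and between 24 and 12 months 29 and 15 became 26 and 23. Over all transcripts, 9303 became 8250, 9855 became 7179 and 5596 became 5866, in the same order. The part of aligned bases in the level where listed was not tested.

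**Figure D2:**
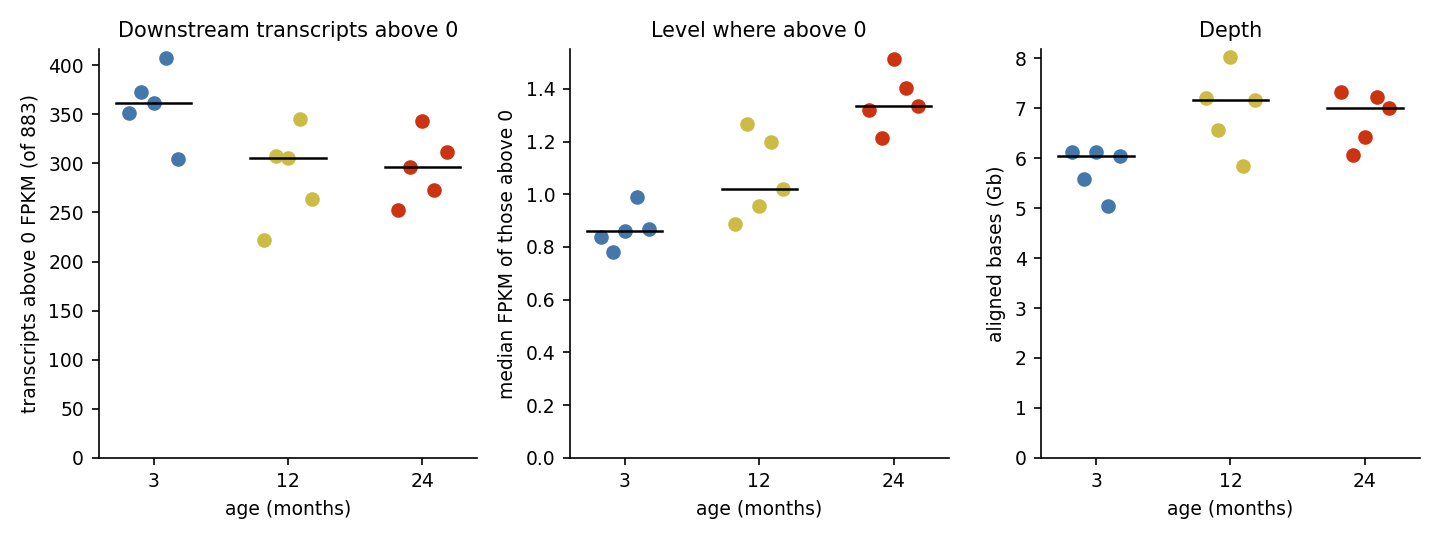
By age in months (x axis), with a point per mouse and a bar at the median of 5 mice: the number of the 883 transcripts above 0, the median FPKM of those above 0, and the aligned bases in Gb. The middle panel separates 3 from 24 months, at most 0.990 against at least 1.21 FPKM, while the counts overlap.

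Counted by transcript, 102 were listed at 0 in all 5 mice at 3 months, 223 at 12 months and 228 at 24 months. Those above 0 in all 5 mice numbered 53, 43 and 47. A total of 22 were above 0 in at least 4 mice at 3 months and in at most 1 at 24 months, and 9 the other way round. Only the transcript past Gtpbp4 went from 0 mice to 5, and none went from 5 to 0. These counts were not made over all transcripts or in the other assembled classes. They are therefore not read as a trait of these transcripts.

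When zeros were taken as missing values and at least 3 mice were above 0 at each age, 167 of the transcripts could be compared between 24 and 3 months. Of these, 38 (22.8%) were higher at an unadjusted limma p under 0.05 and 2 were lower, against 7.15% higher of all 76775 transcripts compared in this way. Their median log2 difference was 0.30, and that of all transcripts was 0.02. The share higher was 31.1% for assembled transcripts between genes, 24.7% for those antisense to a gene, 15.9% for those within introns and 6.37% for annotated transcripts. The higher level where listed was thus shared with other assembled classes. This way of counting was chosen after the data were seen.

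Across ages with zeros kept, few of the transcripts were called, which took an unadjusted p under 0.05 and a difference above 1 on the log2(FPKM + 1) scale. At the limits in the methods of the study, an adjusted p under 0.6 and a fold change above 2, which were added after the data were seen and applied here to the limma fit, 2 transcripts passed in each comparison. The number over all transcripts was not counted at these limits. Between 24 and 3 months, 854 were above 0 in at least 1 mouse and could be tested, and 4 were called, 2 higher and 2 lower. This split moved with the setting, to 18 higher and 7 lower with aligned bases as a covariate, to 26 higher and 34 lower with a pseudocount of 0.1, and to 6 higher and 0 lower without 24-month replicate 31 or 32. Of all 124719 transcripts tested, 0.795% were called, 0.465% higher and 0.33% lower. The share among the 854 was 0.468%. Without the fold limit 58 had p under 0.05, 32 higher and 26 lower, or 6.79% against 7.9% of all. For 7 of them (0.82%) the values of the ages did not overlap, against 2.13% of all. The median difference was −0.01, and 0.01 over all transcripts.

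Between 12 and 3 months, 2 of 861 were called, both lower. With aligned bases as a covariate 13 were higher and 5 lower, with a pseudocount of 0.1 there were 18 higher and 35 lower, and with values rescaled to TPM 15 higher and 29 lower, so the direction depends on the setting. The background was 0.784% called, 0.466% higher and 0.317% lower of all 124761. The number with p under 0.05 was 46, or 5.34% against 7.46%, and 6 did not overlap, against 1.85% of all. Between 24 and 12 months, 4 of 784 were called, all higher (29 higher and 17 lower with TPM, 27 and 17 with the pseudocount of 0.1), against 0.402% called, 0.186% higher and 0.216% lower of all 125282. The number with p under 0.05 was 44, or 5.61% against 4.47%, and 3 did not overlap, against 0.782% of all. These comparisons share mice, so their values are not independent. By limma with adjusted p under 0.05, 0 of the transcripts passed in any of the 3 comparisons.

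The transcript past Gtpbp4, a nucleolar GTPase needed to assemble the large ribosomal subunit, was the call with the smallest p between 24 and 3 months. It spans 466 bases (chr13:8971337-8971802, minus strand), starts 269 bases past the listed end and lies wholly inside a vM21 exon of Gtpbp4 whose end is shown above. It was listed at 0 in all 5 mice at 3 months. At 12 months it had 1.63, 1.73, 1.53, 0 and 0 FPKM, and at 24 months 1.90, 0.567, 1.82, 1.2 and 1.73. The ages 3 and 24 months did not overlap (limma, adjusted p = 0.105). The gene differed by −0.26 on the log2 scale and was not called, from 4.91 ± 0.866 to 3.90 ± 0.475 FPKM (SD, n = 5).

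The other transcript higher at 24 than at 3 months lay past Gm24666, a small nuclear RNA gene (chr5:9171194-9171809, plus strand, 1965 bases past the end). It had 0.0802, 0.658, 0.560, 0.682 and 0.365 FPKM at 3 months, 0.578, 0, 1.92, 0.882 and 0.889 at 12 months, and 1.77, 0.831, 2.83, 1.92 and 2.90 at 24 months. The gene is 1 of those followed by 2 transcripts, and the other one had a mean of 0.915 FPKM. All 24-month values were above all 3-month values, 2.05 ± 0.853 against 0.469 ± 0.251 (SD, n = 5), a log2(FPKM + 1) difference of 1.02 (SE 0.23, limma, adjusted p = 0.263). It lost its call without 3-month replicate 5 (0.92), 24-month replicate 33 (0.93) or 24-month replicate 35 (0.92).

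Slc25a32, a mitochondrial carrier of folate and FAD, was followed by a transcript that was lower at both later ages. It lies 1946 bases past the listed end (chr15:39090943-39092245, minus strand), with 1015 of its 1303 bases in a vM21 exon of the gene. At 3 months it had 2.22, 2.51, 2.23, 2.53 and 2.44 FPKM. It was above 0 in 1 mouse at 12 months, at 2.66, and in 2 at 24 months, at 3.03 and 2.37. The mice thus divided into values near 2.5 and listed zeros, and the ages overlapped. The log2(FPKM + 1) difference was −1.38 at 12 months (SE 0.35, limma, adjusted p = 0.430) and −1.01 at 24 months (SE 0.43, limma, adjusted p = 0.609), and the gene differed by −0.23 and −0.09. The 12-month call held in 15 of 16 alternatives, being lost with aligned bases as a covariate (−1.13), and the 24-month call in 7 of 16. The latter was lost with median-ratio scaling (−0.999), without any 1 of the 5 mice at 3 months (−1.02 to −0.99) and without 24-month replicate 31, 32 or 33 (−0.82 each).

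The transcript past Cmklr1, the receptor of the chemoattractant chemerin (chr5:113611524-113611836, minus strand), had 0, 2.87, 0, 0.863 and 3.67 FPKM at 3 months and was listed at 0 in all 5 mice at 24 months. The ages overlapped at 0 (limma, adjusted p = 0.613), and the call held in 6 of 15 alternatives. It was lost with the covariate, without 3-month replicate 6, 8 or 9, and without any 1 of the 24-month mice. Past Zfp648, a zinc finger gene (chr1:154206369-154206926, plus strand), the values were 1.87, 3.44, 0, 1.72 and 1.28 FPKM at 3 months and 0.980, 0, 0, 0 and 0 at 12 months. The log2(FPKM + 1) difference at 12 months was −1.06 (SE 0.38, limma, adjusted p = 0.599). At 24 months 2 mice were again above 0, at 1.04 and 1.88. The call held in 13 of 16 alternatives and was lost with aligned bases as a covariate (−0.90) and without 3-month replicate 5 (−0.999) or 6 (−0.84).

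Between 24 and 12 months the 4 calls followed Srd5a2, Tmem203, CAAA01180111.2 and Gm26853. Past Srd5a2, a steroid 5α-reductase (chr17:74014526-74016730, minus strand), 1 of 5 mice was above 0 at 12 months, at 0.773 FPKM. The 24-month values were 1.25, 1.72, 1.45, 1.56 and 1.30, all higher (log2 difference 1.13, SE 0.18, limma, adjusted p = 0.5). At 3 months the values were 2.14, 0.978, 1.28, 0 and 1.19, so the low age was 12 months.

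Past Tmem203, a membrane protein of the endoplasmic reticulum (chr2:25256940-25258596, plus strand), 1 mouse was above 0 at 3 months (0.704) and 1 at 12 months (0.401). All 5 were above 0 at 24 months, at 1.01, 1.08, 0.920, 1.5 and 1.37 FPKM. The 24-month values lay above those of both other ages, with a log2 difference from 12 months of 1.02 (SE 0.14, limma, adjusted p = 0.327), a call that held in 10 of 16 alternatives. It was lost without 12-month replicate 18, 19, 20 or 21 (0.99 each) and without 24-month replicate 34 (0.97) or 35 (0.99). Past CAAA01180111.2, a lincRNA, the transcript was at 0 in all 12-month mice, and at 0, 1.95, 1.66, 1.98 and 1.56 at 24 months (limma, adjusted p = 0.838).

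Past Gm26853, a lincRNA in the chromosome 8 stretch, the values were 0, 0, 0.367, 1.30 and 2.61 FPKM at 12 months and 2.08, 1.35, 2.77, 2.78 and 3.28 at 24 months. The ages overlapped, with a log2 difference of 1.06 (SE 0.37, limma, adjusted p = 0.838). The call held in 12 of 17 alternatives. It was lost with zeros as missing values (0.59), without 12-month replicate 17 or 18 (0.88 each) or 19 (0.99), and without 24-month replicate 35 (0.97). At 3 months the transcript had 0.892 to 1.65 FPKM, with every mouse above 0.

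**Figure D3:**
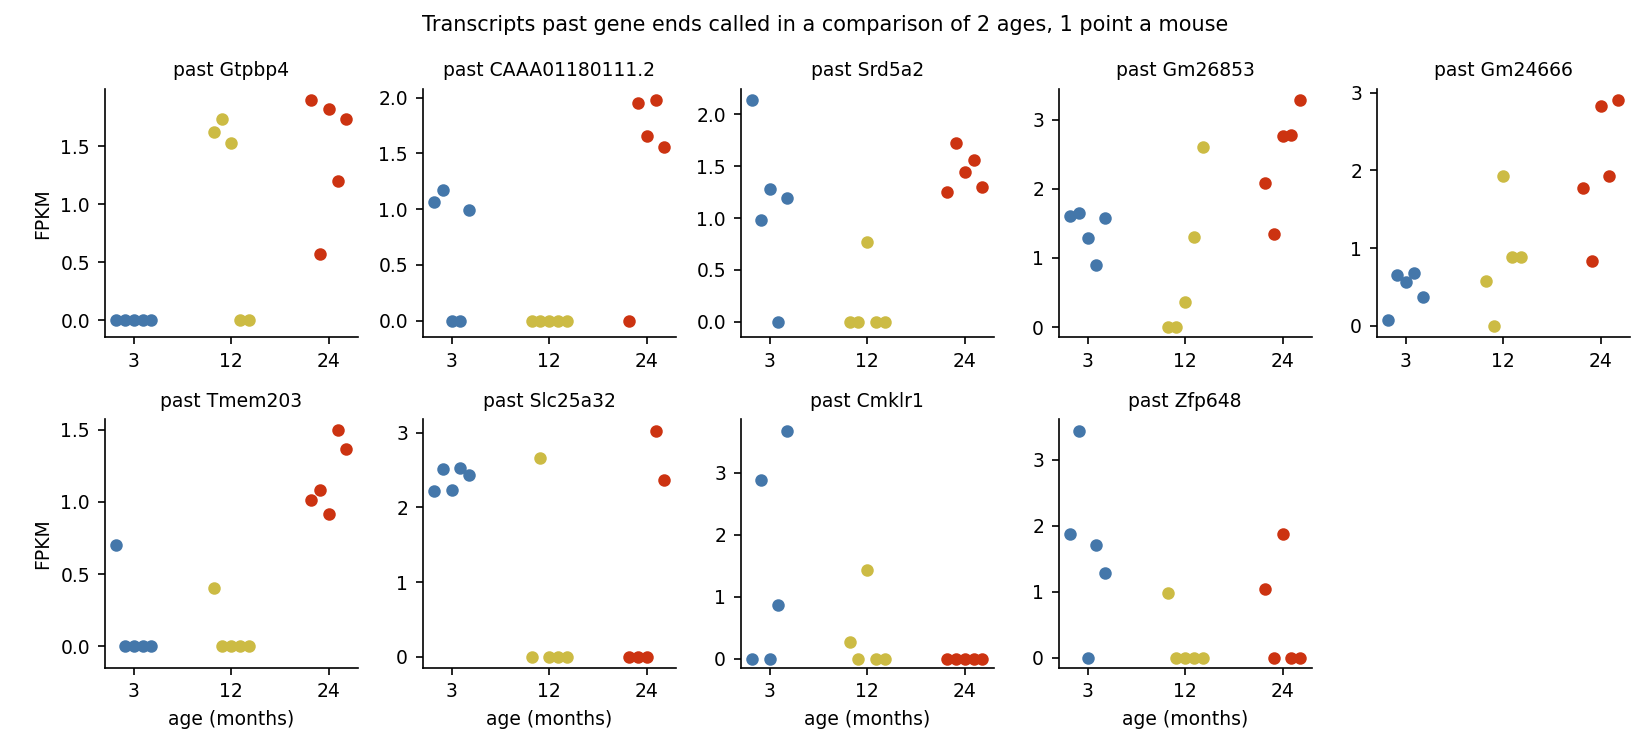
FPKM (y axis) in each of the 15 mice by age in months (x axis) for 9 transcripts called in at least 1 comparison, a panel each, with a point per mouse. Listed zeros stand beside values of 1 to 3 FPKM in mice of the same age, as past Slc25a32, while past Gtpbp4 all 3-month mice are at 0 and all 24-month mice above 0.5.

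The genes followed by these transcripts were compared in the same way. Of 822 such genes in the gene fit between 24 and 3 months, 12 (1.46%) were called, 6 higher and 6 lower, against 0.618% of all 31701 genes. At p under 0.05 there were 126 (15.3%) against 13.4% of all, 84 higher and 42 lower, a share near that of all genes. At adjusted limma p under 0.05 there were 6 of the 822 and 190 of all genes. The lower ones included Zfp36l2, an RNA-binding protein that destabilises mRNA (−3.00, limma, adjusted p = 0.079), Hmox1, heme oxygenase (−1.36), and Dyrk2, a kinase (−1.47). The higher ones included Oard1, an ADP-ribose hydrolase, at 3.77 ± 0.376 FPKM at 3 months and 9.07 ± 1.44 at 24 months (SD, n = 5; log2 1.07, SE 0.114, limma, adjusted p = 0.009), and Cyp2d12, a cytochrome P450 (1.56). The transcripts past 11 of these 12 genes could be tested and none was called, with log2 differences of −0.48 to 0.04.

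Dyrk1b was 1 of the 12 and is followed after 1498 bases by a transcript of 9797 bases. The gene had 0.270, 1.08, 0.535, 4.57 and 0.0609 FPKM at 3 months and 2.51, 5.16, 7.19, 4.56 and 8.27 at 24 months (log2 1.71, SE 0.45, limma, adjusted p = 0.13). The transcript past it had 2.11, 4.09, 2.94, 0.745 and 3.47 at 3 months and 5.38, 1.23, 0, 5.41 and 0 at 24 months. Only the gene was called, and 1 of the 3-month mice had the gene at 4.57.

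Transcript and gene were also compared directly. Across 819 pairs the differences between 24 and 3 months had a Pearson r of 0.061 and a Spearman rho of 0.065, as a description, since pairs share the same libraries. In 14 pairs both had p under 0.05, 12 of them with the same sign. For the ratio of transcript to gene, 24 of 823 (2.92%) were called, 8 higher and 16 lower, against 3.42% of all 29357 assembled transcripts with a named gene. The ratio past Dyrk1b differed by −2.20 (SE 0.90, limma, adjusted p = 0.621). For the transcript past Gtpbp4, at 0 in every 3-month mouse, no ratio is given.

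**Figure D4:**
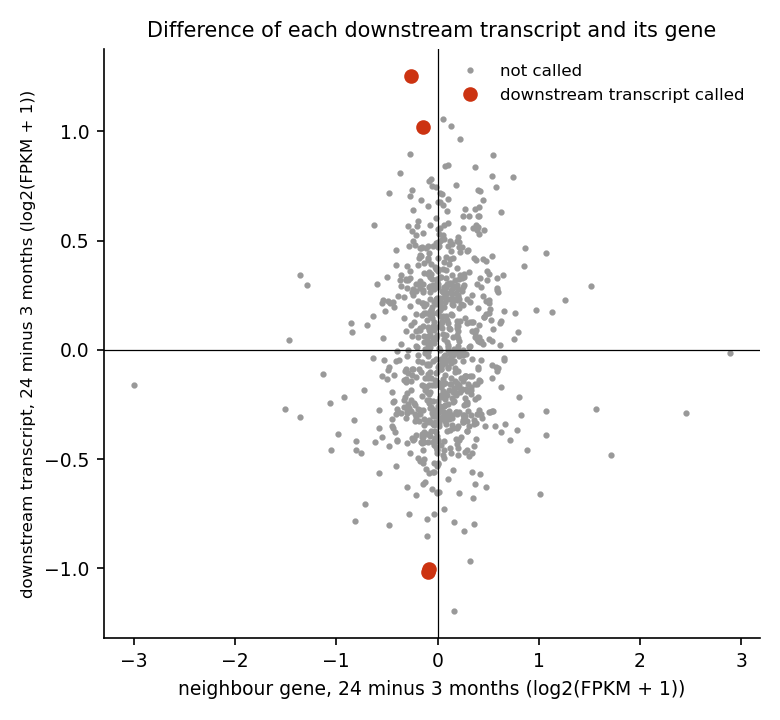
Difference between 24 and 3 months on the log2(FPKM + 1) scale for each transcript (y axis) and for the gene it follows (x axis), 819 pairs, a point per pair, with the 4 called transcripts marked. The points spread along both axes with no common slope (r 0.061), and the called transcripts lie beside genes that differ by less than 0.3.

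Genes that end transcripts and clear RNA past gene ends were taken as a list. Of 47 genes of cleavage, polyadenylation and termination, 3 were higher at unadjusted p under 0.05 between 24 and 3 months and 1 was lower, with 0 called, a smaller share than the 13.4% of all genes at that limit. The higher ones included Nudt21 (log2 0.64), a cleavage factor that directs the choice of poly(A) site, and Ppp1r10 (0.50), a phosphatase subunit of termination. The lower one was Ints3 of the Integrator complex (−0.61, SE 0.16, limma, adjusted p = 0.133). The median of the list was 0.00 and that of all genes 0.02. Of 19 genes of the nuclear exosome, 2 were higher, Exosc8 (0.40) and Exosc9 (0.55, SE 0.12, limma, adjusted p = 0.090), and none was lower at that limit, with a median of 0.13, again a share below 13.4%. Between 12 and 3 months 4 of the first list were higher and 2 lower, and 4 of the exosome list were higher. Of all genes 13% passed, so the share of the exosome list was above that of all genes. In the first list 1 gene was called, higher, against 0.564% of all genes. Between 24 and 12 months 1 of the first list was higher and 4 lower, and 1 of the exosome list was lower. Of all genes 5.72% passed, so the share of the first list was above that of all genes. In the first list 1 gene was called, lower, against 0.227% of all genes.

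Some of these genes were themselves followed by assembled transcripts. Those of the first list were Ints1, Ints3, Pabpc1 and Rbbp6, and that of the exosome list was Rbm7. The transcript past Rbbp6, a cleavage factor subunit, had a mean of 0.414 FPKM, 6.70% of the gene, and was above 0 in 5 mice. The transcript past Rbm7, part of the complex that brings nuclear RNA to the exosome, had 0.177 FPKM and was above 0 in 3. Of the transcripts past genes of any list, only those past Slc25a32 and Zfp648 were called in any comparison.

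A part of the stress genes was lower at 24 than at 3 months. Of 33 heat shock, immediate early and stress response genes, 15 were lower at unadjusted p under 0.05 between 24 and 3 months and none higher, with a median of −0.78, where 13.4% of all genes passed in either direction. Of the 15, 8 were called, against 0.618% of all genes, and 4 had an adjusted limma p under 0.05. Between 12 and 3 months 10 were lower and none higher, and between 24 and 12 months 1 was lower and 1 higher, the higher one called. The list was followed by only 2 transcripts, past Atf4 and Zfp36. Among 22 immune markers 5 were higher and none lower, and among 19 clock genes 7 were higher and 4 lower, both at unadjusted p under 0.05 between 24 and 3 months. The part of these genes in the results above was not tested.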

How the data were processed

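Kidney RNA of 15 mice was sequenced with 1 column of values per mouse. From the study's methods, the authors used Cutadapt for trimming, Bowtie2 and HISAT2 for mapping to GRCm38 with Ensembl annotation (release 88), and StringTie to assemble transcripts, which they merged with Perl scripts. The submitters' processing notes name TopHat, TopHat2 and StringTie. The authors deposited FPKM and, for each transcript, its coverage, both as StringTie estimates and not as counts. StringTie can list a transcript at 0 in a library, so zeros may be estimates that were not made. Aligned bases per mouse were coverage times length, summed.

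Every transcript above 0 in any of the 10 mice of a comparison was fitted with limma 3.58.1 (trend) in R 4.3.3 on log2(FPKM + 1), which understates differences of low transcripts. Calls needed unadjusted p under 0.05 and a log2 difference above 1. Benjamini-Hochberg adjustment ran over all transcripts tested. Gene values were summed FPKM of Ensembl transcripts. The fit was tested on simulated data first. GENCODE vM21 gave gene types, newer exons and end sequences. Nothing in the sources says more of the replicates than that they are different mice. Sequences of the assembled transcripts themselves were not used here.

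Transcripts named are the 10 of highest mean FPKM, those called (up to 6 per direction and comparison), the 5 of highest ratio to a gene of at least 1 FPKM, the most abundant past a gene of each list, and the 3 genes with most transcripts past them, where 25 tied. The members and the lists were chosen with earlier results of these data known. Columns of the authors' own comparisons were not used.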

Additional observations from a re-analysis of the deposited data

How the results depend on the processing

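The numbers of called transcripts were small and moved with the setting. Between 24 and 3 months, 4 became 60 with a pseudocount of 0.1, 54 with values rescaled to TPM, 25 with aligned bases as a covariate, 58 with no fold limit, 0 at adjusted p under 0.05, 2 at adjusted p under 0.6 and 1 of 18 transcripts above 0 in every mouse. Over all 124719 transcripts, 992 became 6099, 4262 and 1997 in the first 3 of these settings. The main fit gave the 854 a smaller share than all transcripts, and these 3 settings a larger one. Between 12 and 3 months, 2 became 53, 44, 18, 46, 0, 2 and 0 of 17 in the same order, and 1 of 149 with zeros as missing values. Over all 124761 transcripts, 978 became 5862, 4015 and 1756 in the first 3 settings. Between 24 and 12 months, 4 became 44 with the pseudocount, 46 with TPM, 44 with no fold limit, 0 at adjusted p under 0.05, 2 at adjusted p under 0.6, 0 of 20 above 0 in every mouse and 1 of 142 with zeros as missing values. Over all 125282 transcripts, 504 became 3417 with the pseudocount and 2437 with TPM. Leaving out 1 mouse gave 3 to 10 calls (10 without 3-month replicate 7, 7 without 24-month replicate 35), 2 to 7 (7 without 12-month replicate 20, 6 without 12-month replicate 18 or 3-month replicate 7, 5 without 12-month replicate 21, 4 without 12-month replicate 17 or 3-month replicates 6, 8 or 9) and 3 to 11 (11, 10 and 8 without 24-month replicates 31, 34 and 32). These fits tested 753 to 856 of the transcripts. Over all 123228 to 124200 transcripts tested in them, 1028 to 1231, 952 to 1211 and 554 to 700 were called. With every mouse above 0 the calls over all were 565 of 51257, 595 of 51414 and 264 of 54891. With zeros as missing values they were 824 of 76775, 814 of 76945 and 406 of 80054. The 24 calls on the ratio became 58 with the pseudocount of 0.1 and 20 to 29 with 1 mouse left out. Over all 29357 ratios, 1005 calls became 2029 with that pseudocount. With 1 mouse left out they were 1023 to 1207, of 28872 to 29197 ratios. A pseudocount of 0.1 widens the step from a listed 0, so more on-and-off transcripts pass the fold limit. Rescaling to TPM raised the values of every mouse while the pseudocount stayed at 1, which widens that step too. The cause of the other shifts was not tested. The settings with every mouse above 0, with zeros as missing values and with adjusted p under 0.6 were added after the data were seen. The median ratio to the gene was 0.106 against the most abundant transcript of the gene. Of 161 alternative values of the called transcripts, 125 were still called and 36 were not, and 0 of 233 values of named transcripts changed sign. These counts are no measure of robustness, since most of these transcripts were named for their difference in these data. Settings that dropped a transcript were not counted for it. Past Gtpbp4, Cmklr1 and CAAA01180111.2, with every mouse of an age at 0, rescaling, a pseudocount or leaving out a mouse could not change the sign. The call past Gtpbp4 held in 16 of 16 alternatives. These leave out the settings with every mouse above 0 and with zeros as missing values. Listed at 0 in every 3-month mouse, that transcript could not enter them, and its adjusted limma p was 0.105. FPKM carry no read counts, so counting error per transcript is unknown. No paired analysis was possible because the ages share no replicate numbers.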
